A study of Mus musculus with 6 samples.

Results

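The genes of mitochondrial protein import and of the chaperones that receive imported proteins were described in differentiated primary myoblast cultures from SfpqSM-KO and control mice. Members were all genes whose symbol starts with Tomm or Timm, together with 14 named partners, that had a TPM (transcripts per 1000000 transcripts) of at least 1 in 3 or more libraries. Of 41 symbols that met the name rule, 38 passed the TPM filter, out of 12461 genes tested in all. SFPQ_KO libraries (n = 3) came from mice in which Sfpq, a nuclear RNA-binding protein of transcription and splicing, was knocked out in skeletal muscle, and Cont libraries (n = 3) came from control mice. All mice were 1-month-old males. Myoblasts of both groups were expanded in 20% fetal bovine serum with bFGF, a fibroblast growth factor, at 2.5 ng/mL and then differentiated in 2% horse serum for 4 days before polyA RNA was sequenced. The sources used here do not give the driver of the knockout, the genotype of the controls or the number of mice behind each library. A p-value therefore reflects the spread between these libraries alone, which may be technical. TPM keeps no read depth, and the depth behind each value is unknown.

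Nearly all mitochondrial proteins are made in the cytosol and enter the organelle through a shared pore, the TOM complex of the outer membrane. From there, proteins with a cleavable presequence pass through the TIM23 translocase, drawn in by the PAM motor around the chaperone mortalin. Carrier proteins are escorted by small TIM chaperones to the TIM22 translocase, beta-barrel proteins are inserted by the SAM complex, and cysteine-rich proteins are trapped by the MIA relay. In the matrix, presequences are cut off by the processing peptidase and new proteins fold in the Hspd1 and Hspe1 chaperonin. Muscle fibres are rich in mitochondria, and the machinery is used in all cell types.

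The start regions of 4 members are shown for reference: the member with the lowest fold (Timm8a1), the pore subunit Tomm40, the chaperonin pair and the member with the highest fold (Tomm34). No link between these letters and the differences below was tested. Each RefSeq window (GRCm38.p6) holds 250 bases before and 50 bases after an annotated start, written 5′ to 3′ on the strand of the gene. Capitals mark matches, on either strand, to the letters of 8 motifs. Capitals in the Timm8a1 window mark the E-box (CACGTG), in the Tomm40 window the CCAAT box (CCAAT), and in the Tomm34 window the ETS motif (CCGGAAG). In the Hspe1 window they mark a heat shock pair (GAANNTTC), a pair of ETS matches on opposite strands that overlap it and each other, and an ERR half-site (AAGGTCA).
Timm8a1, chrX:134541621-134541920, minus strand: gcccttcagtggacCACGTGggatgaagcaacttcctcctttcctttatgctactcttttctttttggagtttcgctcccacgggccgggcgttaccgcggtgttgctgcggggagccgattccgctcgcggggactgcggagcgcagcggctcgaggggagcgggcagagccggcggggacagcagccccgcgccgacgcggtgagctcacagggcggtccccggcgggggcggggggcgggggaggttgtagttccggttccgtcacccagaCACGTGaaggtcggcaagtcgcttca
Tomm40, chr7:19715380-19715679, minus strand: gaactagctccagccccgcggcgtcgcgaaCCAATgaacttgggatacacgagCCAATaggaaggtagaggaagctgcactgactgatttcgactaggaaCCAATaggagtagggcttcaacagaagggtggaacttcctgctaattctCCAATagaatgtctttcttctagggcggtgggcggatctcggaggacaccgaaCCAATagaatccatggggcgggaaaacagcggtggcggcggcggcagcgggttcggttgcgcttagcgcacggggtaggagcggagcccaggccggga
Hspe1, chr1:55087898-55088197, plus strand: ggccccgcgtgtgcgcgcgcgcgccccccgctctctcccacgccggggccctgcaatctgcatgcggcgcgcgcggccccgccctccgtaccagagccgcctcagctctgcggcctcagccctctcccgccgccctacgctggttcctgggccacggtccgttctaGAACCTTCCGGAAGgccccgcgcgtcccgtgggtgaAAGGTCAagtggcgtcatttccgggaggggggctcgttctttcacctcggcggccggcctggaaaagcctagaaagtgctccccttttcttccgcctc
Tomm34, chr2:164071120-164071419, minus strand: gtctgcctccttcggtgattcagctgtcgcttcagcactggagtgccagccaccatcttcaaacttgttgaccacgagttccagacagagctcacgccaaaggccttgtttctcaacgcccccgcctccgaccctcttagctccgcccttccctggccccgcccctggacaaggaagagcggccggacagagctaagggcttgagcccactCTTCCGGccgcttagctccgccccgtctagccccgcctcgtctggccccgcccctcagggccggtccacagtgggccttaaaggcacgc

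RefSeq held 36 such windows for 33 of the 38 members. The ETS motif was found in 17 of the 36 member windows (47.2%), against 17.5% of the 12157 windows of tested genes and 8.86% of all 32851 windows. NRF1 core letters (CGCANGCG) were present in 8 member windows (22.2%), against 17.04% of windows of tested genes and 8.21% of all. The ERR half-site occurred in 5 member windows (13.9%), against 3.15% and 4.72%, and the heat shock pair in 3 (8.33%), against 5.69% and 7.86%. CCAAT was found in 10 (27.8%), against 37.8% of windows of tested genes and 37.4% of all, and the E-box in 5 (13.9%), against 10.2% and 7.15%. Letters of the CHOP and ATF4 element (TGATGNAAT, 0.965% of all windows) and of the cAMP response element (TGACGTCA, 1.79%) were in 0 member windows. Some matches are counted more than once, because windows overlap. A Hspd1 window and the Hspe1 window share 285 bases, with the same ERR half-site, heat shock pair and ETS pair counted for both. The Tomm34 windows also share an ETS match, and the 17 ETS windows belong to 16 members. These matches describe letters only and say nothing of binding.

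The cultures carried the markers of differentiated muscle. Summed over 10 myotube genes the level was 80733 to 84906 TPM in SFPQ_KO and 69034 to 74706 TPM in Cont, with 6 genes higher, 4 lower and 0 at an unadjusted p under 0.05. Of the markers of proliferating or undifferentiated myoblasts, 7 of 7 were lower (against 64.5% of all genes), with a median log2 difference of −0.75. Their sums were 36.7, 69.8 and 38.9 TPM in SFPQ_KO libraries against 69.2 to 77.8 TPM in Cont, so SFPQ_KO replicate 2 fell inside the Cont range. Mki67, Ccnb1, Ccna2, Top2a and Cdk1 were low, at most 1.96, 3.60, 4.92, 5.79 and 6.50 TPM in any library. Of the 7, 4 were lower at an unadjusted p under 0.05 in limma, against 9.62% of all genes. For 3 of the 7 the groups did not overlap, against 15.3% lower in this way. Groups also did not overlap for 3 myotube genes, all higher in SFPQ_KO, against 4.27% of all genes. For fibroblast markers the sums were 156 to 216 TPM in SFPQ_KO and 198 to 292 TPM in Cont. Of the 3 tested, 2 were lower and 1 higher, with log2 differences from −1.50 to 0.02. At an unadjusted p under 0.05 in limma 1 was lower, against 9.62% of all genes. Groups did not overlap for 1, lower in SFPQ_KO, against 15.3% of all genes. Smooth muscle and pericyte markers summed to 632 to 845 and 507 to 1178 TPM. Most of these sums came from Col3a1 (141 to 246 TPM over the 6 libraries) and Acta2 (503 to 1166 TPM). Col1a1 was at 11.1 to 75.9 TPM and Cspg4 at 3.21 to 18.1 TPM. Pdgfra, Dcn, Lum, Thy1 and Tcf7l2 were at most 1.41, 4.39, 0.02, 2.15 and 2.53 TPM, and Myh11 and Rgs5 at most 0.06 and 0.49 TPM. Sums for endothelial, leukocyte, adipocyte and Schwann cell markers were at most 2.24 TPM in either group, and Tie1, Emcn, Ptprc and Adgre1 were listed at 0 in all 6 libraries. Sfpq stood at 17.2 ± 2.78 TPM in SFPQ_KO and 53.0 ± 6.50 TPM in Cont (SD, n = 3 each), with a log2 difference of −1.57 (SE 0.15, limma adjusted p = 0.0531). Within bulk cultures, fewer cells of a type and less RNA per cell cannot be told apart, and the part of cell makeup in the differences below was not tested.

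Log2 differences of import and chaperone genes were small, under 0.1 in size for 21 of the 38 members. None of the 38 members passed limma's test with Benjamini-Hochberg adjustment over all genes. It was passed by 0% of the 12461 genes tested. The targeted gene Sfpq missed it too, so missing it does not show equal levels. The smallest adjusted p of a member was 0.192. At an unadjusted p under 0.05, 5 members were lower in SFPQ_KO (13.2%, against 9.62% of all genes) and 1 was higher (2.63%, against 2.68%). Log2 differences were below 0 for 26 members (68.4%, against 64.5% of all genes), and the members' median was −0.08, against −0.07 for all tested genes. All SFPQ_KO libraries lay below all Cont libraries for 8 members (21.1%, against 15.3%) and above them for 1 (2.63%, against 4.27%). These counts were 6 and 3 after median-of-ratios scaling and 6 and 4 after quantile normalization. They were 13 and 3 without Cont replicate 2 and 13 and 2 without SFPQ_KO replicate 2. Without SFPQ_KO replicate 3 they were 12 and 1, and with a library left out fewer have to lie apart. Shares over all genes were not counted for these settings, so the counts cannot be read as particular to the members. The share below 0 and the median lay close to those of all genes. After median-of-ratios scaling the split was 20 lower and 18 higher, with 48.5% of all genes lower, and after quantile normalization 23 lower and 15 higher, with 49.7% of all genes lower. The number at an unadjusted p under 0.05 was 6 with all libraries, 2 without Cont replicate 3 and 3 without SFPQ_KO replicate 1. Over all genes the shares fell as well. Without Cont replicate 3, 5.48% were lower and 2.06% higher at that threshold, and without SFPQ_KO replicate 1, 6.11% and 1.73%.

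**Figure D1:**
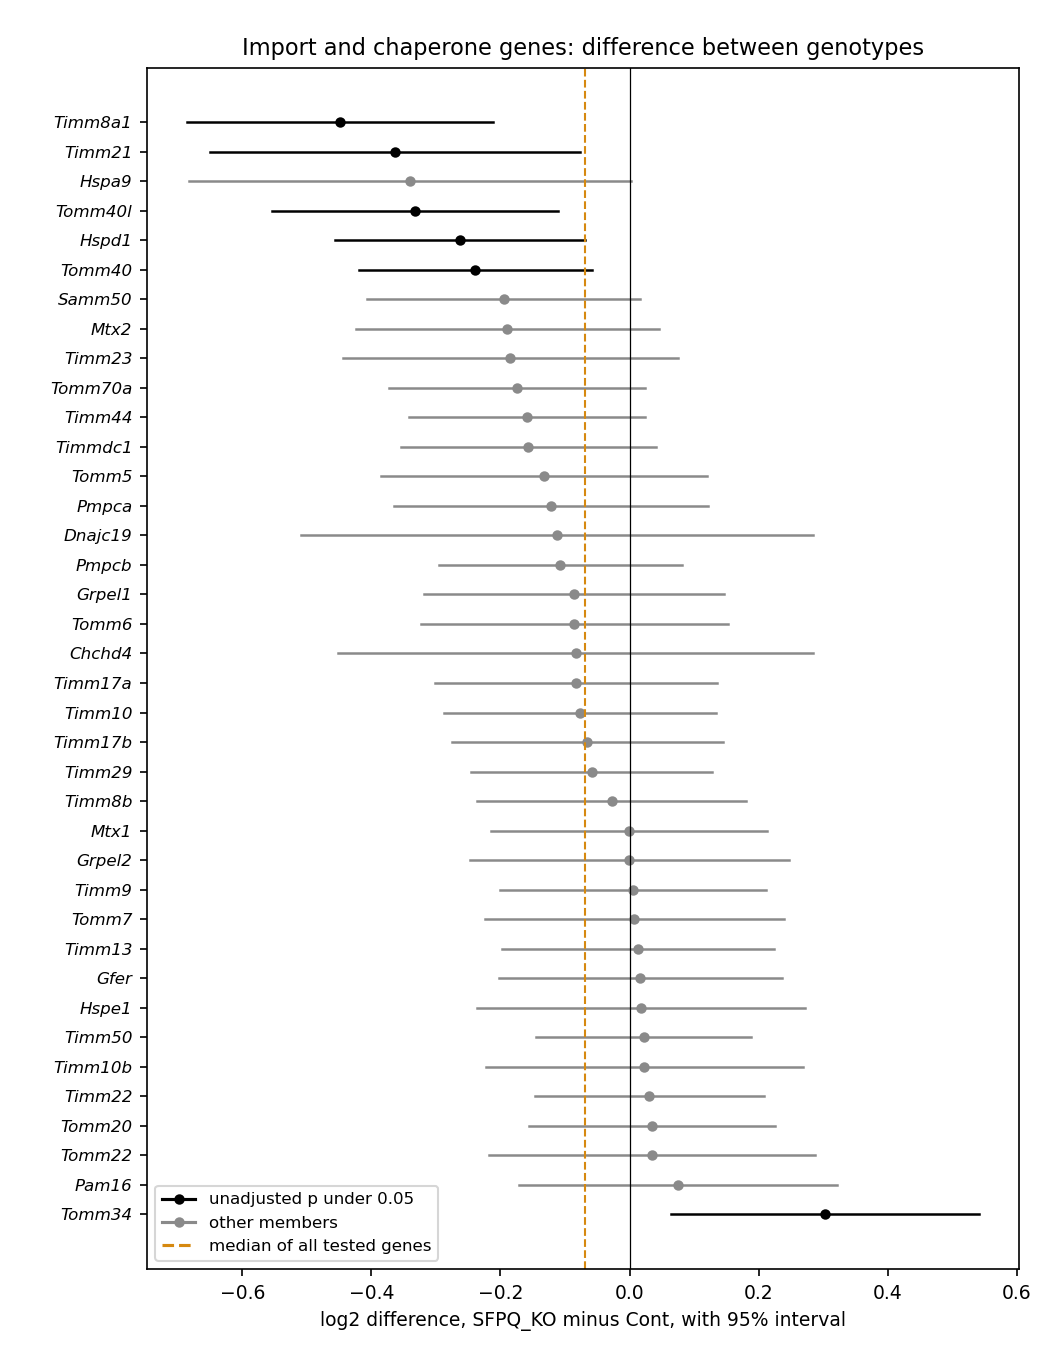
Log2 difference (SFPQ_KO minus Cont, on log2(TPM + 1)) of each of the 38 members with its 95% interval from limma, ordered by size; black marks the 6 members with an unadjusted p under 0.05 and the dashed line the median of all tested genes (−0.07). Differences run from −0.45 for Timm8a1 to 0.30 for Tomm34, and 21 members lie within 0.1 of 0.

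The intervals bound what differences these libraries allow. For 32 of 38 members the 95% interval of the log2 difference lay within 0.5 either side of 0, and 21 members had a difference smaller than 0.1 in size. The shares of all genes within these bounds were not counted. Members spanned a wide range of levels, from Hspa9 at a mean of 350.3 TPM over the 6 libraries, Timm17a at 205, Samm50 at 199.98 and Tomm22 at 184 TPM down to Grpel2 at 18.4, Mtx1 at 17.3, Timm8a1 at 13.4 and Timm21 at 11.3 TPM. TPM is scaled per transcript length, so these levels can be set side by side. Summed over the members, the level was 3151, 3266 and 3401 TPM in the SFPQ_KO libraries and 3530, 3491 and 3548 TPM in the Cont libraries. Those sums did not overlap between groups, also without Hspa9 (2894 to 3072 against 3120 to 3150 TPM). After median-of-ratios scaling they did overlap, at 3188 to 3547 in SFPQ_KO and 3264 to 3582 in Cont. By complex, values were lower in SFPQ_KO for 5 of 9 TOM genes (median log2 difference −0.09), 3 of 3 SAM and metaxin genes (−0.19), 3 of 6 small TIM chaperones (−0.01), 4 of 5 TIM23 genes (−0.08), 5 of 6 motor genes (−0.10) and 2 of 2 peptidase genes (−0.11). It was 1 of 2 for the MIA relay (−0.03), for TIM22 (−0.01) and for the chaperonin (−0.12), and 64.5% of all genes were lower. These counts include small differences, and the sign changed in at least 1 alternative for 17 of the 38 members.

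**Figure D2:**
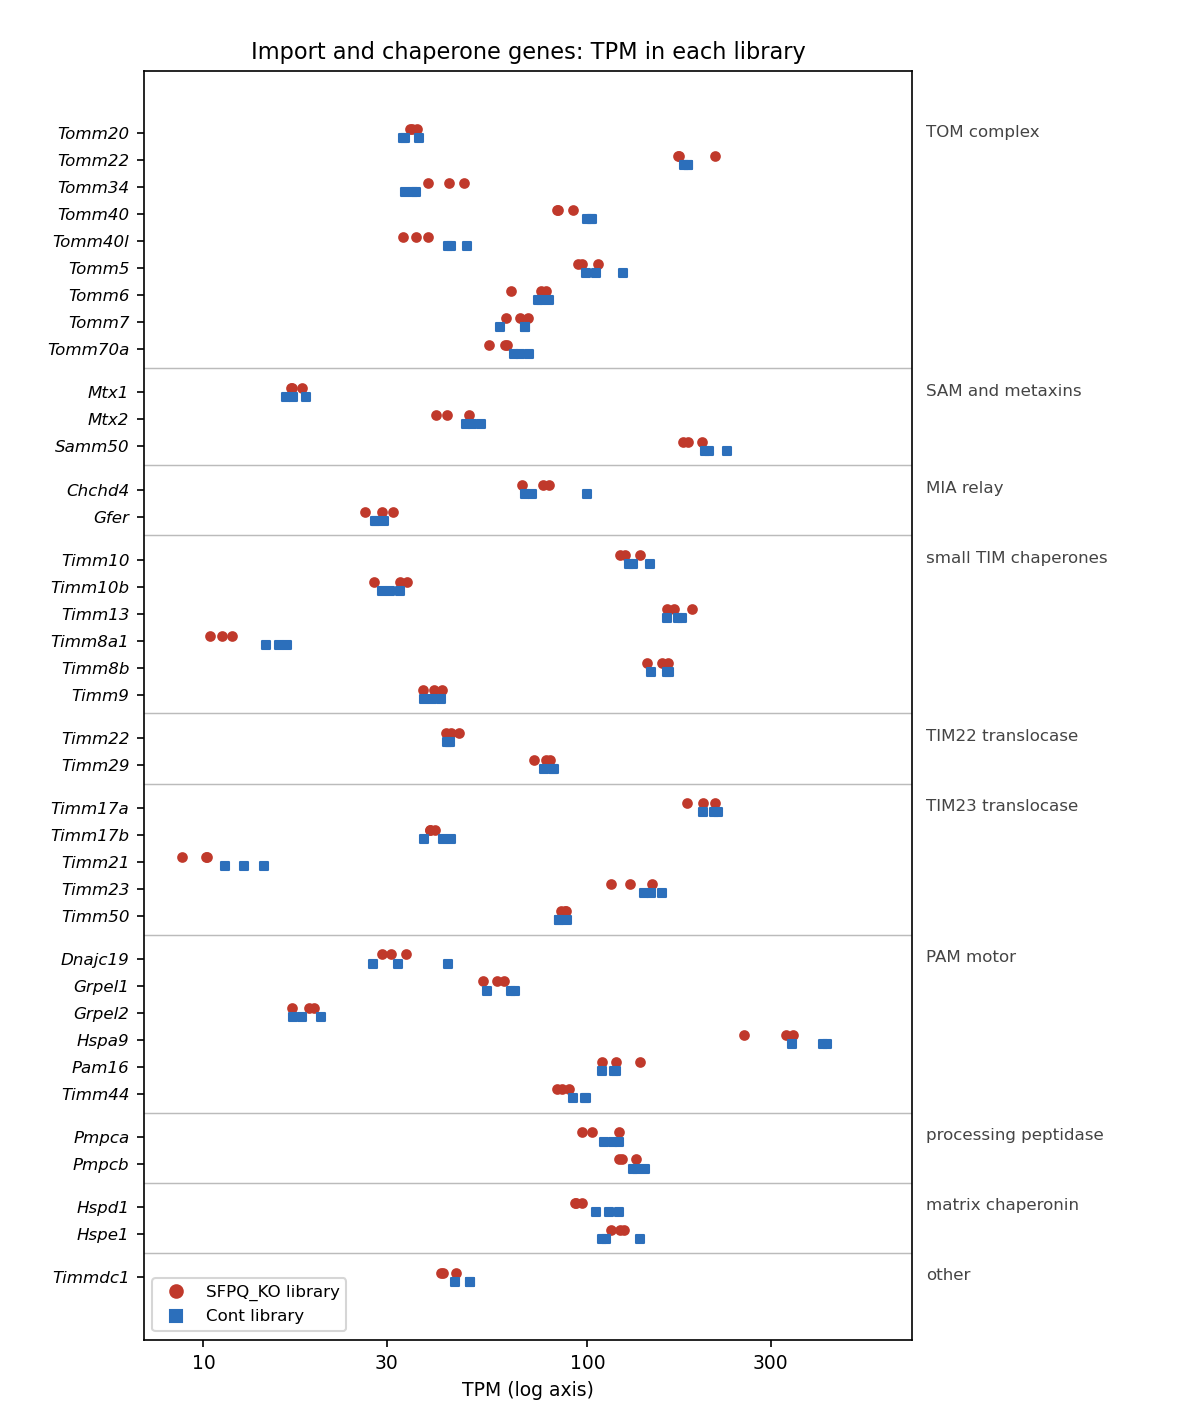
TPM on a log axis of the 38 members in each library, grouped by complex, with SFPQ_KO libraries as circles above and Cont libraries as squares below in each row. In most rows the groups overlap, and in 9 rows, those of Timm8a1, Tomm40l and Tomm34 among them, they do not.

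In the TOM complex, 2 pore genes were lower in SFPQ_KO and 1 cytosolic helper higher at an unadjusted p under 0.05. Of the receptors, Tomm20 and Tomm22 overlapped between groups and Tomm70a did not. Tomm40 (chromosome 7, 19701313 to 19715442), the beta-barrel that forms the import pore, was at 83.6, 91.5 and 83.2 TPM in SFPQ_KO libraries, against 99.9, 102.9 and 102.4 TPM in Cont libraries. All SFPQ_KO libraries were low and the groups did not overlap. Its log2 difference was −0.24 (SE 0.08, limma adjusted p = 0.316). Tomm40l (chromosome 1, 171217802 to 171222514), a paralog of the pore, was at 33.0, 38.4 and 35.9 TPM in SFPQ_KO and 44.0, 43.4 and 48.5 TPM in Cont. Here too each SFPQ_KO library was below each Cont library. Its log2 difference was −0.33 (SE 0.09, limma adjusted p = 0.272). Nearly all of its span (4691 bases in GENCODE) overlaps Nr1i3 on the opposite strand, which was listed at 0 in all 6 libraries.

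Tomm34 (chromosome 2, 164053538 to 164071178), a cytosolic co-chaperone that binds precursors with Hsp70 and Hsp90, was the one member higher at that threshold. It stood at 43.7, 38.5 and 47.6 TPM in SFPQ_KO libraries and at 35.7, 35.2 and 33.4 TPM in Cont libraries. Every SFPQ_KO library was above every Cont library. The log2 difference was 0.30 (SE 0.10, limma adjusted p = 0.329). Its span overlaps Stk4 on the opposite strand by 848 bases, with Stk4 at 11.7 to 14.7 TPM over the 6 libraries.

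Among receptors, Tomm70a, which takes carrier precursors from cytosolic chaperones, was at 61.1, 61.8 and 55.3 TPM in SFPQ_KO and 64.3, 70.2 and 66.8 TPM in Cont. Those groups did not overlap, and its log2 difference of −0.17 had a 95% interval of −0.37 to 0.02. Tomm20, the receptor for presequences, averaged 35.1 ± 0.68 TPM in SFPQ_KO and 34.3 ± 1.84 TPM in Cont (SD, n = 3 each). Tomm22, the central receptor and the TOM gene with the highest TPM, was at 173, 173 and 215 TPM in SFPQ_KO against 179, 183 and 183 TPM in Cont, so 1 SFPQ_KO library stood high and the groups overlapped. The small subunits around the pore overlapped as well. Tomm5 averaged 99.2 ± 6.14 against 109 ± 12.7 TPM, Tomm6 72.2 ± 7.78 against 76.4 ± 2.55 TPM and Tomm7 65.9 ± 4.36 against 65.6 ± 5.56 TPM in SFPQ_KO and Cont.

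**Figure D3:**
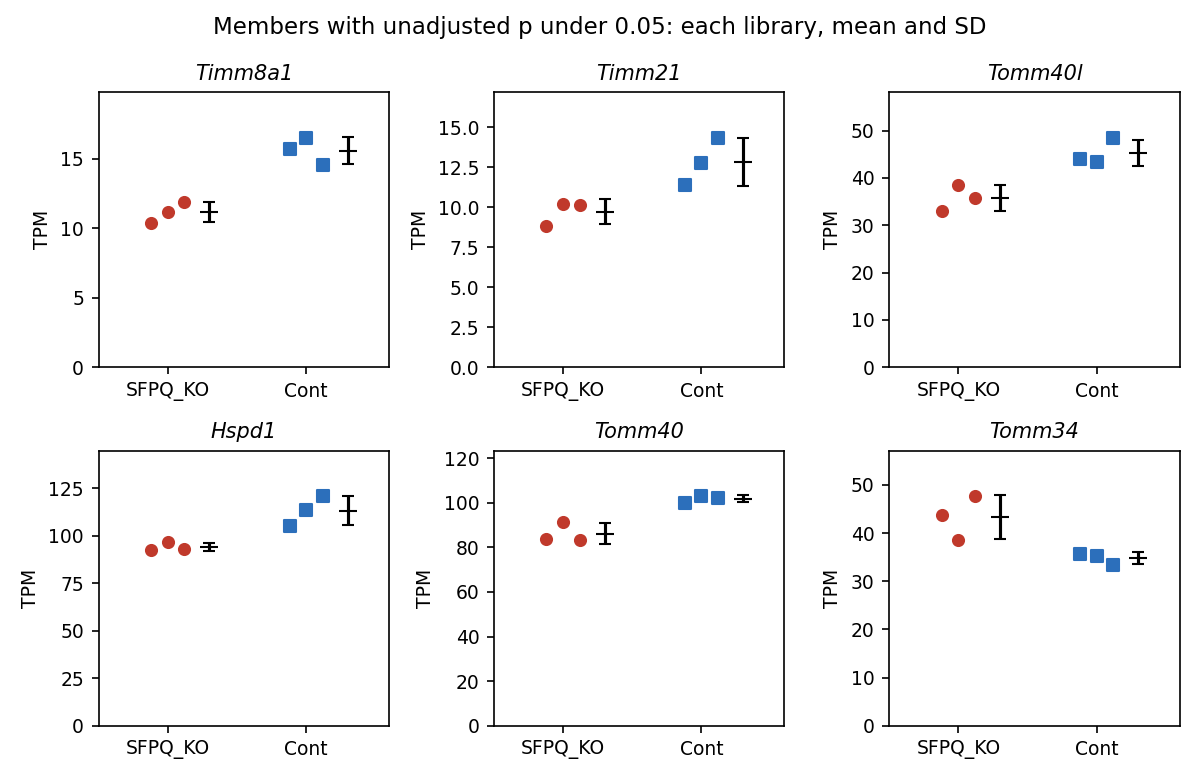
TPM in each library (points), with the mean and SD (bars) of each group, of the 6 members with an unadjusted p under 0.05; SFPQ_KO is on the left and Cont on the right of each panel, and each axis starts at 0. In each panel the 3 SFPQ_KO points do not overlap the 3 Cont points, with Tomm34 alone higher in SFPQ_KO.

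For the sorting complex of the outer membrane, Samm50 and Mtx2 had lower values and Mtx1 was level. Samm50, the core of the SAM complex, stood at 182, 178 and 199 TPM in SFPQ_KO and 230, 203 and 208 TPM in Cont. The groups did not overlap, by a small gap, and the log2 difference of −0.19 (SE 0.09) had a limma adjusted p of 0.431. Metaxin Mtx2, at 50.9 kb the longest member, was at 43.0, 40.2 and 49.2 TPM in SFPQ_KO against 50.1, 48.3 and 52.7 TPM in Cont, with a log2 difference of −0.19 (SE 0.10) and overlapping groups. Its partner Mtx1 averaged 17.3 ± 0.60 and 17.3 ± 1.04 TPM (interval of the log2 difference −0.21 to 0.21). In the MIA relay, the receptor oxidoreductase Chchd4 was at 76.4, 67.7 and 79.4 TPM in SFPQ_KO and 68.7, 99.5 and 71.6 TPM in Cont, where 1 Cont library stood high. Gfer, the sulfhydryl oxidase that recharges it, averaged 28.9 ± 2.41 and 28.5 ± 0.89 TPM in SFPQ_KO and Cont (SD, n = 3 each).

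Among the small TIM chaperones, which form hexamers in the intermembrane space, Timm8a1 was lower in SFPQ_KO at an unadjusted p under 0.05, with its partners near equal between groups. Timm8a1 (chromosome X, 134537256 to 134541670) was at 10.4, 11.2 and 11.9 TPM in SFPQ_KO libraries, against 15.7, 16.5 and 14.5 TPM in Cont libraries. Its 3 SFPQ_KO values lay well below the 3 Cont values. The log2 difference was −0.45 (SE 0.10), the lowest of all members, with a limma adjusted p of 0.192. Timm13, the partner of Timm8a1 in its hexamer and the small TIM with the highest TPM, was at 161, 167 and 187 TPM in SFPQ_KO and 177, 172 and 161 TPM in Cont, with groups that overlapped. The paralog Timm8b averaged 154 ± 9.91 TPM in SFPQ_KO and 157 ± 9.11 TPM in Cont. Timm9 (39.6 ± 2.32 and 39.5 ± 2.10 TPM), Timm10 (128 ± 7.93 and 135 ± 9.07 TPM) and Timm10b (31.3 ± 3.18 and 30.8 ± 1.67 TPM), which serve the carrier pathway, also overlapped between the groups.

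Both members of the TIM22 carrier translocase were near equal. Its channel gene Timm22 averaged 44.4 ± 1.72 TPM in SFPQ_KO and 43.4 ± 0.43 TPM in Cont. The subunit Timm29 was at 78.1, 72.4 and 80.1 against 81.5, 81.9 and 76.9 TPM.

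In the TIM23 translocase, the lowest log2 difference was that of its gene with the lowest TPM. Timm21 (chromosome 18, 84946191 to 84951530), which links TIM23 to TOM and to respiratory chain assembly, was at 8.81, 10.20 and 10.15 TPM in SFPQ_KO libraries and 11.4, 12.8 and 14.3 TPM in Cont libraries. These values did not overlap. Its log2 difference was −0.36 (SE 0.12, limma adjusted p = 0.329), and it overlaps Fbxo15 on the opposite strand, a gene at no more than 0.170 TPM in any library. The channel gene Timm23 was at 115, 147 and 129 TPM in SFPQ_KO against 156, 140 and 147 TPM in Cont, with a log2 difference of −0.19 (SE 0.11) and overlapping groups. Timm17a, the TIM23 gene with the highest TPM, was at 199.6, 182 and 215 TPM in SFPQ_KO and at 199.6, 219 and 213 TPM in Cont. Its paralog Timm17b (39.3 ± 0.68 and 41.2 ± 3.33 TPM) and the presequence receptor Timm50 (87.0 ± 1.31 and 85.7 ± 2.20 TPM) overlapped too.

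In the import motor, the lowest log2 difference was that of the chaperone itself. Hspa9, mortalin (chromosome 18, 34937414 to 34954351), the matrix Hsp70 that pulls precursors in, was at 256, 344 and 329 TPM in SFPQ_KO libraries and 411, 341 and 420 TPM in Cont libraries. SFPQ_KO replicate 1 was lowest, and Cont replicate 2 lay just below SFPQ_KO replicate 2, so the groups overlapped. The log2 difference was −0.34 (SE 0.14, limma adjusted p = 0.408), and the unadjusted p was under 0.05 without Cont replicate 2 or without SFPQ_KO replicate 2. Timm44, which anchors mortalin at the channel, was at 83.4, 89.7 and 85.8 TPM in SFPQ_KO against 99.2, 91.5 and 98.7 TPM in Cont, with no overlap and a log2 difference of −0.16 (SE 0.08). Nucleotide exchange factors Grpel1 (57.3 ± 3.63 and 60.9 ± 5.35 TPM) and Grpel2 (18.4 ± 1.24 and 18.5 ± 1.65 TPM) overlapped between groups. So did Pam16 (122 ± 14.3 and 115 ± 5.03 TPM) and Dnajc19 (31.2 ± 2.24 and 34.3 ± 8.11 TPM), the J-type pair that governs mortalin's ATPase.

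On the matrix side, Hspd1 was lower in SFPQ_KO at an unadjusted p under 0.05, with its partner Hspe1 near equal between groups. Hspd1 (Hsp60, chromosome 1, 55077833 to 55088243), the folding chamber of the matrix, was at 92.6, 96.7 and 93.1 TPM in SFPQ_KO libraries against 105, 114 and 121 TPM in Cont libraries. The SFPQ_KO values sat close together below all Cont values. Its log2 difference was −0.26 (SE 0.08, limma adjusted p = 0.310). Hspe1 (Hsp10, chromosome 1, 55088148 to 55091317), the lid of the chamber, was at 124, 115 and 121 TPM in SFPQ_KO and 109, 137 and 112 TPM in Cont, with a log2 difference of 0.02 and a 95% interval of −0.24 to 0.27. Head to head on opposite strands, the RefSeq spans of the pair overlap by 96 bases, and the Hspe1 window printed above shares 285 bases with a start window of Hspd1. The annotations name 5 pseudogene copies of Hspd1 and 6 of Hspe1, so reads of both are uncertain where copies are near identical. Subunits of the processing peptidase were at 107 ± 12.2 against 116 ± 5.28 TPM (Pmpca) and 126 ± 7.07 against 136 ± 4.85 TPM (Pmpcb). Pmpcb, the catalytic subunit, was at 123, 134 and 121 TPM in SFPQ_KO and 135, 131 and 141 TPM in Cont.

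Timmdc1 carries the Timm prefix but is an assembly factor of respiratory complex I. It was at 42.0, 45.6 and 41.6 TPM in SFPQ_KO and 49.6, 45.3 and 49.6 TPM in Cont, with a log2 difference of −0.16 (SE 0.08) and groups that overlapped narrowly. At the TPM filter, the lowest members inside were Timm21 and Timm8a1. Of the 3 symbols outside it, the noncoding Tomm6os was at 0.21, 0.31 and 0.40 TPM in SFPQ_KO and 0.25, 0.23 and 0.36 TPM in Cont, and Tomm20l and Timm8a2 were listed at 0 in all 6 libraries.

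Ratios between partner genes within a library do not change when the whole library is scaled by a single factor, though quantile normalization can change them. Such ratios were compared without a test for 10 pairs chosen with the levels known. The ratio of Timm8a1 to Timm13 was 0.0646, 0.0667 and 0.0636 in SFPQ_KO libraries and 0.0889, 0.0960 and 0.0901 in Cont libraries. That of Timm8a1 to Timm8b was 0.0664, 0.0780 and 0.0731 against 0.107, 0.101 and 0.0903. These were the 2 pairs whose groups did not overlap. Both have Timm8a1 on top of a partner near equal between groups, so they repeat the difference of Timm8a1 and are not separate results. Hspd1 to Hspe1 stood at 0.745, 0.842 and 0.768 in SFPQ_KO and 0.965, 0.832 and 1.08 in Cont, where Cont replicate 2 fell inside the SFPQ_KO range. Both pore genes were lower together, with Tomm40 to Tomm40l at 2.41 ± 0.11 in SFPQ_KO and 2.25 ± 0.13 in Cont. The remaining pairs were Timm8b to Timm13, Timm9 to Timm10, Timm17a to Timm17b, Pmpca to Pmpcb, Grpel1 to Grpel2 and Mtx2 to Mtx1, and their groups overlapped.

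**Figure D4:**
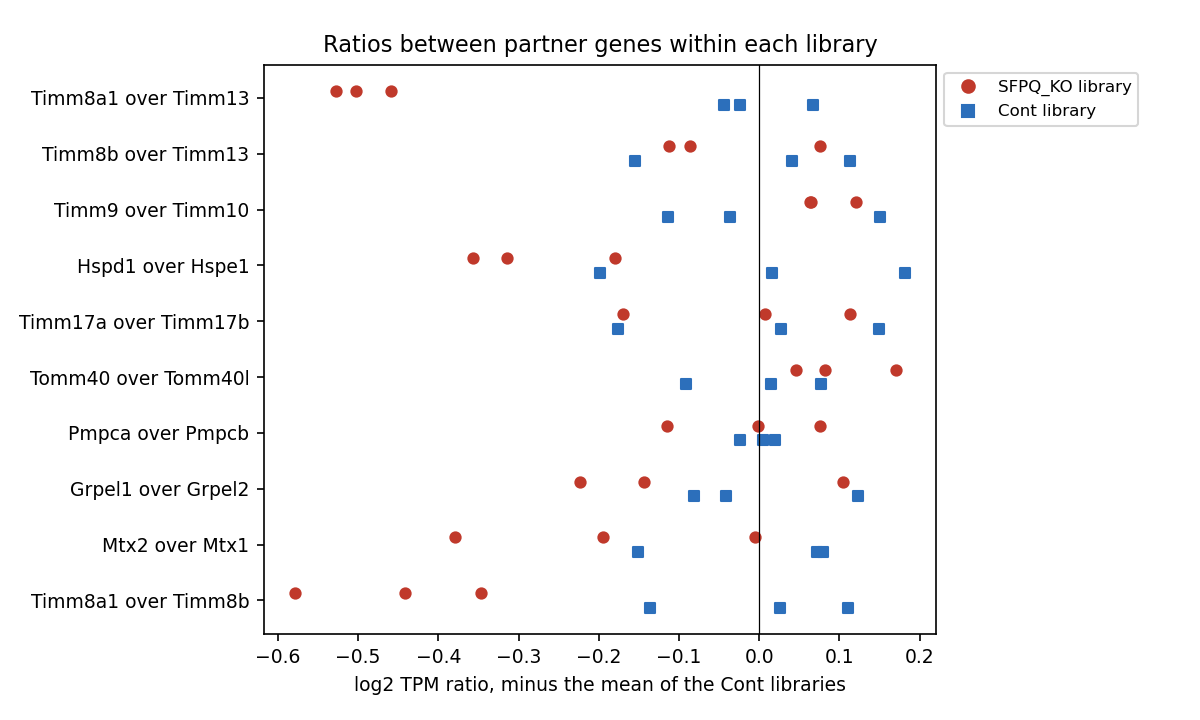
Log2 of the TPM ratio of 10 partner pairs in each library, minus the mean of the Cont libraries; circles are SFPQ_KO and squares Cont libraries. The 3 SFPQ_KO circles lie left of all Cont squares for Timm8a1 over Timm13 (log2 difference −0.50) and Timm8a1 over Timm8b (−0.46), and the groups overlap for the other 8 pairs.

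Members were short genes, a feature the rule did not use. Their median genomic span was 9.02 kb, against 21.7 kb for the 11954 tested genes with a span, and 0 members reached 100 kb, against 11.8% of tested genes. Of the 21 members under 10 kb, 13 were lower and the median log2 difference was −0.06, against −0.02 for all tested genes under 10 kb. Among the 17 members of 10 kb or more, 13 were lower and the median was −0.16, against −0.08 for tested genes of 10 to 100 kb. Across the 38 members, Spearman's rho between span and log2 difference was −0.28 and Pearson's r with log10 span was −0.15, given as a description of genes that share the same 6 libraries. Members lay on 18 chromosomes, 2 of them on X (Timm8a1 and Timm17b). The spans of 18 members overlap another protein-coding gene, 7 of them by 1000 bases or more, and the sources used here do not say whether reads were counted by strand. Of those 7, Dnajc19 lies partly within Fxr1, which had 234 to 267 TPM, and Pam16 within Glis2 at 18.1 to 30.03 TPM, both on the opposite strand. Timm10b and Tomm6 overlap Gm45799 (3086 bases) and Gm21981 (1648 bases) on the same strand, where counting by strand would not separate them. Neither of those partners had a TPM value under its symbol.

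Genes that work beside the members were counted in 4 lists, and 0 of them passed limma's adjusted threshold. Of 24 tested import partners outside the rule, 17 were lower (70.8%, against 64.5% of all genes, with a median log2 difference of −0.13). At an unadjusted p under 0.05 there were 7 lower, and 4 after median-of-ratios scaling, without Cont replicate 3 or without SFPQ_KO replicate 1. Over all genes 9.62% were lower at that threshold with all libraries, and 5.31%, 5.48% and 6.11% in these alternatives, in that order. The 7 included Immp2l, an inner membrane peptidase subunit, at 3.95 ± 0.98 against 14.1 ± 3.06 TPM (log2 difference −1.61, limma adjusted p = 0.0815), and the cristae organisers Chchd3 (208 ± 17.2 against 271 ± 12.6 TPM) and Immt (147 ± 19.3 against 202 ± 20.1 TPM) in SFPQ_KO and Cont. A list of mitochondrial quality control held 16 tested genes: matrix chaperones and proteases, the prohibitins Phb and Phb2, and the stress-related transcription factors Atf5, Ddit3 and Cebpb. Of these, 15 were lower (93.8%, against 64.5% of all genes, median −0.16), and 3 of them at an unadjusted p under 0.05, against 9.62% of all genes. It was 0 after median-of-ratios scaling, with the replicate block, without Cont replicate 1 or without SFPQ_KO replicate 1. There 5.31%, 6.70%, 8.60% and 6.11% of all genes were lower at that threshold. Without Cont replicate 3 it was 1. The 3 with all libraries were the mitochondrial J protein Dnaja3 (66.5 ± 8.06 against 89.1 ± 12.4 TPM), the mitochondrial Hsp90 Trap1 (129.9 ± 17.97 against 164 ± 14.2 TPM) and the protease Afg3l2 (84.7 ± 8.60 against 107.0 ± 12.98 TPM). Of 23 cytosolic chaperones and escort factors of precursors, 13 were lower and 10 higher (median −0.01, and between −0.09 and 0.07 over the alternatives), with 0 at an unadjusted p under 0.05. The 3 nearest were Dnajb6 at 49.8 ± 3.94 against 41.8 ± 4.22 TPM, Ywhae at 390.5 ± 7.73 against 440.2 ± 13.1 TPM and Ubqln1 at 79.9 ± 4.32 against 86.8 ± 3.01 TPM. Of 18 markers of mitochondrial mass, 17 were lower (94.4%, against 64.5% of all genes, median −0.26) and 9 at an unadjusted p under 0.05, against 9.62% of all genes. Among the 9 were Cycs (84.4 ± 11.4 against 124 ± 12.1 TPM), Ndufs1 (141 ± 10.7 against 188 ± 18.7 TPM) and Uqcrc2 (280.3 ± 22.9 against 357 ± 27.0 TPM). Those 9 became 2 after median-of-ratios scaling, 3 without SFPQ_KO replicate 1 and 5 without Cont replicate 1 or without Cont replicate 3. The members' median of −0.08 lay between that of the mass markers and that of the cytosolic list, and differences between these lists were not tested.

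**Figure D5:**
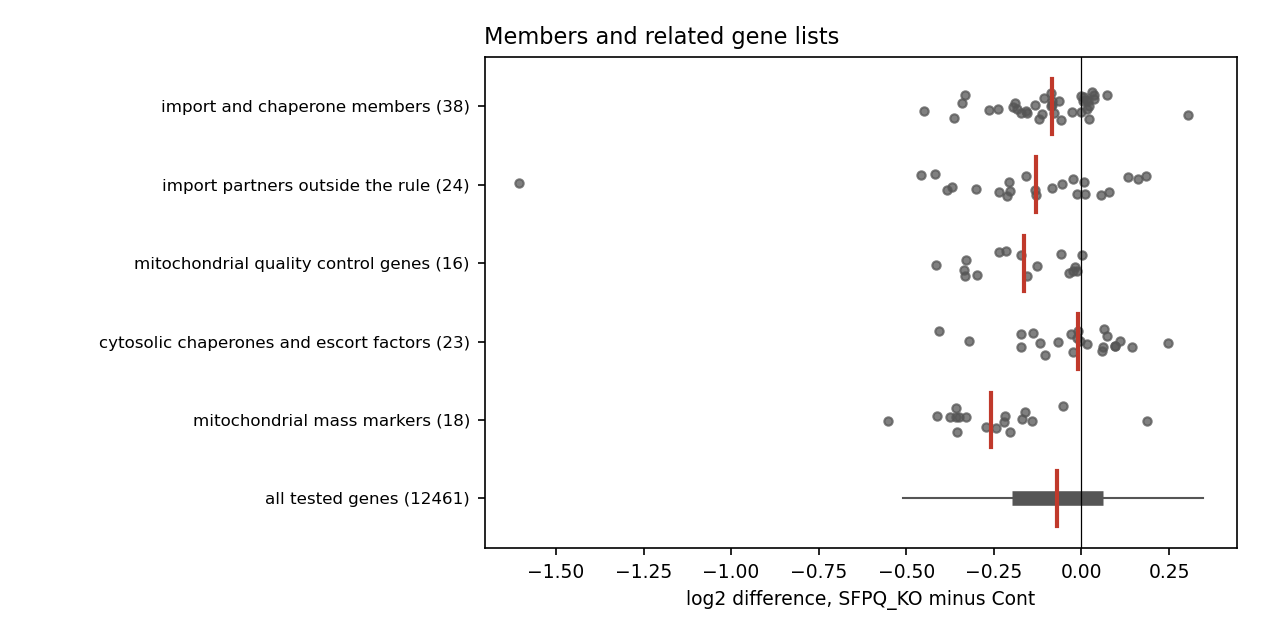
Log2 difference (SFPQ_KO minus Cont) of each gene in the member set and in 4 related lists (points, with the number tested in brackets), with the median as a red bar; for all 12461 tested genes the thick bar runs between percentiles 25 and 75 and the thin line between percentiles 5 and 95. The medians are −0.08 for members, −0.13, −0.16, −0.01 and −0.26 for the lists from top to bottom, and −0.07 for all genes.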

How the data were processed

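The authors deposited TPM, 1 value per RefSeq accession in each of 6 libraries. Per the submitters' processing notes, STAR 2.4.1d was the aligner and mm10 the genome. The sources used here name no counting tool, annotation release or strand setting. Of 34671 accessions, 30822 were named through RefSeq genes of GRCm38.p6 and 103 through GENCODE M21, and TPM was summed per symbol. Each member had 1 accession. A gene was tested if its TPM reached 1 in 3 or more libraries. The test was limma 3.58.1 (R 4.3.3) on values of log2(TPM + 1) (intensity trend, no block, 2-sided, Benjamini-Hochberg adjustment over all tested genes), and fold changes on that scale understate the change of low genes. The script was tested on simulated data before use. Python 3.11.15, pandas 2.3.3 and matplotlib 3.10.9 were used for joins and plots.

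Full values per library are given for the 12 members with the smallest p, the member with the highest TPM in each complex and those at the TPM filter, and from each list the 3 genes with the smallest p are named. Members and lists were chosen with earlier results of these data known, and the CCAAT and E-box motifs were added after the windows were read. Groups were taken from the library titles. Alternatives covered the pseudocount, filter, scaling, the moderation, the threshold, each library left out and a replicate block.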

Additional observations from a re-analysis of the deposited data

How the results depend on the processing

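No member passed limma's adjusted threshold in any of 15 alternatives or at an adjusted p under 0.1, and the smallest adjusted p of a member was 0.179. Sfpq itself passed with a mean TPM filter of 5 (log2 difference −1.57, adjusted p = 0.0445) and with a pseudocount of 5 (−1.39, adjusted p = 0.0431). The members' median log2 difference was −0.00083 after median-of-ratios scaling, with that of all genes at 0.0071, and ran from −0.0922 to −0.0532 over the libraries left out. The number of members at an unadjusted p under 0.05 ran from 2 to 8 over the libraries left out. Over all genes the share lower at that threshold ran from 5.48% to 10.4% there, and the share higher from 1.73% to 5.01%. Timm8a1 and Tomm40l stayed under that threshold in all 15 alternatives. Hspd1 did in 14, Timm21 in 12, and Tomm40 and Tomm34 in 11 each. Without Cont replicate 3 Hspd1, Timm21, Tomm40 and Tomm34 missed it, without SFPQ_KO replicate 1 Timm21, Tomm40 and Tomm34, and without SFPQ_KO replicate 3 Tomm40 and Tomm34. All 6 kept their direction. A sign change in at least 1 alternative was found for 17 other members, each under 0.12 in size with all libraries.

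Deviations from the group mean were correlated at r = −0.26, −0.25 and 0.05 between same-numbered libraries. Over all pairs across the groups r ran from −0.27 to 0.41. With 3 libraries per group such correlations cannot settle whether the numbers pair the libraries, and the labels do not say. With a replicate block 5 members were lower and 0 higher at an unadjusted p under 0.05, against 6.70% and 1.80% of all genes. None of the members passed the adjusted threshold there. Over the alternatives, added for the lists after seeing the data, the number lower ran from 14 to 20 of 24 import partners, from 10 to 16 of 16 quality control genes, from 7 to 15 of 23 cytosolic chaperones and escort factors and from 16 to 17 of 18 mass markers. The number lower at an unadjusted p under 0.05 ran from 4 to 7, from 0 to 4, from 0 to 2 and from 2 to 11 in these lists, in that order. Over all genes the share lower ran from 48.5% to 70.1%, and the share lower at that threshold from 5.31% to 10.4%. With no filter, 8 members were lower and 1 higher at an unadjusted p under 0.05, against 7.48% and 2.51% of the 22396 genes tested there. Unknown depth limits the lowest members, Timm21 and Timm8a1.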
